A study of Homo sapiens with 52 samples.

Results

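Small RNA host transcripts are the noncoding genes named SNHG followed by a number, the genes named MIR followed by letters or digits and ending in HG, and GAS5. The pattern found 66 of the 27043 genes in every deposited table: 21 SNHG genes, GAS5 and 44 MIR host genes. Levels were given in TPM, a read number divided by transcript length and scaled so that each library sums to the same total. Of the 66, 40 were tested because their TPM was 1 or higher in a minimum of 2 libraries out of 52, namely all 22 SNHG genes with GAS5 and 18 of the MIR host genes. The other 26, all MIR host genes, were too low to test, and 6 of them were at 0 in every library.

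A host transcript is transcribed by RNA polymerase II, spliced and polyadenylated, and its introns or exons give rise to smaller RNAs. Hosts of small nucleolar RNAs (snoRNAs), which guide the modification of ribosomal RNA, are often transcribed at a high rate while the spliced product is degraded quickly on ribosomes by nonsense-mediated decay. Hosts of microRNAs (miRNAs) are cut in the nucleus by Drosha, so the spliced or polyadenylated product that a poly(A) library captures is what remains beside that cut. Levels of such RNAs therefore depend on synthesis and on decay, and steady-state RNA cannot tell them apart.

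The cells carried the label RH4, a fusion-positive rhabdomyosarcoma line with PAX3-FOXO1, but the screen samples were titled RH41, another such line, so it could not be settled which line the screen used. In the screen, 20 compounds were each given for 6 h at a higher and a lower dose, 1 library per dose, beside 4 DMSO libraries, of which 2 were titled as the control of the higher dose (0.2% DMSO) and 2 of the lower (0.1%). Doses were 10 and 1 µM, except 5 and 0.5 µM for LAQ824, Cpd50 and GSKJ4. The acetylation axis held 7 compounds, given here with the targets on their labels: LAQ824 (HDAC), WT161 (HDAC6), MC1568 (HDAC4/5), Merck60 (HDAC1/2), OJI-1 (HDAC8), Bromosporin (bromodomains) and SGC-CBP30 (the bromodomain of CREBBP and EP300). The methylation axis held 11: UNC0638 (KMT1C), Cpd50 (pan Jumonji), GSKJ4 (JMJD3 and UTX), GSKLSD1, LSD-519 and LSD-690 (LSD1), EZ-005 (EZH2), UNC1999 (EZH1), SGC0946 (DOT1L), PFI-2 (SETD7) and UNC-1215 (L3MBTL3). PFI-3 (SMARCA4) and trametinib (MEK1/2) belonged to neither. Separate RH4 libraries had 1 µM N1302 or DMSO for 6 h, and 1 µM entinostat (HDAC1/2/3) or DMSO for 1, 6 or 24 h, with 1 library for each. Nothing in the labels says that the samples came from separate cultures, so p-values measure only the spread between these libraries.

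Whole read numbers worked out from the TPM steps ranged from 5737939 to 41415071 per library. All 10 markers of fusion-positive rhabdomyosarcoma were at a TPM of at least 1 in every DMSO library, and 5 of 6 markers of other lineages were under 1 in all libraries (summed level of the 6, 0.282 to 3.08 TPM). The 2 DMSO libraries of 1 concentration, run on different flow cells, differed from each other beyond the flow cell by 1.02 times the counting noise and were counted as 1 sample in each mean ± SD (n = 2 concentrations). The tests used them as 4 samples, and counts with them averaged are given where they moved by more than 1.5 times. In 3 libraries, PFI-2, Bromosporin and Merck60 at 10 µM, 67.7% to 73.9% of low read numbers were even, against at most 50.1% elsewhere. Most compounds ran on a flow cell without DMSO, so compound and flow cell cannot be told apart for them by the DMSO reference alone.

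The small RNAs carried by the miRNA hosts are shown first because the largest falls and rises below concern hosts of known families. The tables held 136 rows of snoRNAs or miRNAs that lie inside a member, 65 of them inside SNHG genes or GAS5, and 64 of the 66 members had at least 1. The mature sequences below belong to miRNA genes inside, or within 5000 bases of, a host with a mean TPM of at least 1 in screen DMSO; they were taken from RefSeq (GRCh38.p14), and capitals mark the seed, bases 2 to 8, by which a miRNA recognises its targets.
hsa-miR-17-5p: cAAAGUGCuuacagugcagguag
hsa-miR-20a-5p: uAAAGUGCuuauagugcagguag
hsa-miR-18a-5p: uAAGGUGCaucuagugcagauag
hsa-miR-19a-3p: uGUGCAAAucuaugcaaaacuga
hsa-miR-19b-3p: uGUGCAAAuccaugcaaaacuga
hsa-miR-92a-3p: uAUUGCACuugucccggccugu
hsa-miR-503-5p: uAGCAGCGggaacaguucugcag
hsa-miR-424-5p: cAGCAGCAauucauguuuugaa
hsa-miR-181a-5p: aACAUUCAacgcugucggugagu
hsa-miR-181b-5p: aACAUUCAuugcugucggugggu
hsa-let-7a-5p: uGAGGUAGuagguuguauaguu
hsa-let-7b-5p: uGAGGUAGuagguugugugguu
hsa-let-7d-5p: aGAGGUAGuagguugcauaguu
hsa-miR-4458: aGAGGUAGguguggaagaa
hsa-miR-22-3p: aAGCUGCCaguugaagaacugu
hsa-miR-210-3p: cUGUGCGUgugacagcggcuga
hsa-miR-193b-3p: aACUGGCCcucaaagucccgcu
hsa-miR-600: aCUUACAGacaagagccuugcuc
hsa-miR-100-5p: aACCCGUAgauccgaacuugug
hsa-miR-125b-5p: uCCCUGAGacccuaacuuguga
hsa-miR-762: gGGGCUGGggccggggccgagc

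The sequences fell into seed families that cross host boundaries. MIR17HG carried 2 miRNAs with the seed AAAGUGC (miR-17-5p and miR-20a-5p) and 2 with GUGCAAA (miR-19a-3p and miR-19b-3p). The seed GAGGUAG was shared by let-7a, let-7b and let-7d and by miR-4458, from MIRLET7BHG, MIRLET7DHG and MIR4458HG, and a further let-7a gene lies in MIR100HG. MIR181A2HG held 2 miRNAs with the seed ACAUUCA. The seeds of miR-503-5p and miR-424-5p were AGCAGCG and AGCAGCA, and MIR424 lies outside the MIR503HG row. Let-7d lies on the opposite strand to MIRLET7DHG in GENCODE.

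In DMSO the hosts spanned a wide range of levels, with the snoRNA hosts at the top. GAS5, a growth-arrest transcript with snoRNAs in its introns (chr1:173833039-173837125, hg19, minus strand), was the most abundant member at 432 and 447 TPM in 0.2% DMSO and 405 and 394 TPM in 0.1% DMSO (mean 420 ± 28.2 TPM, SD, n = 2). SNHG5 followed at 329 ± 5.44 TPM and SNHG1, which holds 8 snoRNA rows, at 244 ± 24.3 TPM. SNHG6 came next at 143.5 ± 4.79 TPM. These 4 transcripts made up 58.4% of the 1944 TPM of all members. The median level was 58.0 TPM over the 22 SNHG genes with GAS5, 2.75 TPM over the 18 tested MIR host genes and 16.4 TPM over all 16359 genes tested.

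SNHG15 stood at 112 ± 0.0652 TPM. Each SD is over the means of 2 concentrations and leaves out the spread between libraries, here 106.5 to 116.9 TPM. SNHG12, SNHG16 and SNHG7 had means of 78.3, 77.1 and 76.9 TPM, and their ranges over the 4 DMSO libraries, 67.4 to 86.7, 75.5 to 79.8 and 72.2 to 81.6 TPM, overlapped, so their order is not resolved. SNHG19 (62.6 TPM), SNHG3 (61.5 TPM), SNHG8 (59.3 TPM) and SNHG17 (56.7 TPM) likewise lay close together. Of the miRNA hosts, MIR503HG (chrX:133677407-133680660, hg19, minus strand) was highest at 53.4 ± 1.03 TPM. MIR17HG, the host of the miR-17-92 cluster known as an oncogenic miRNA polycistron, followed at 9.68 ± 0.192 TPM, and MIR193BHG at 7.01 ± 0.257 TPM. Over the 4 DMSO libraries MIR503HG ran from 51.0 to 57.1, MIR17HG from 8.52 to 10.6 and MIR193BHG from 5.21 to 8.45 TPM. MIR600HG was at 6.56, MIRLET7DHG at 4.82, MIR22HG at 4.48, MIR4458HG at 4.47, MIR210HG at 3.63, MIR181A2HG at 3.50, MIRLET7BHG at 2.00, MIR762HG at 1.26 and MIR100HG at 1.21 TPM. In all, 16 members had a mean of at least 10 TPM, 17 lay between 1 and 10, and 33 were under 1.

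The DMSO library of the N1302 experiment stood apart from the other 7. Its SNHG12 level was 6.33 TPM, against 67.4 to 86.7 TPM in the screen and 70.7 to 81.9 TPM in the time course. MIR17HG was at 0.932 TPM there, and MIR100HG at 8.53 TPM against 0.970 to 2.65 TPM in the other 7 DMSO libraries. The plot of DMSO levels shows this library below the rest for most hosts and above them for a few, among them SNHG5, SNHG6 and MIR100HG.

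**Figure D1:**
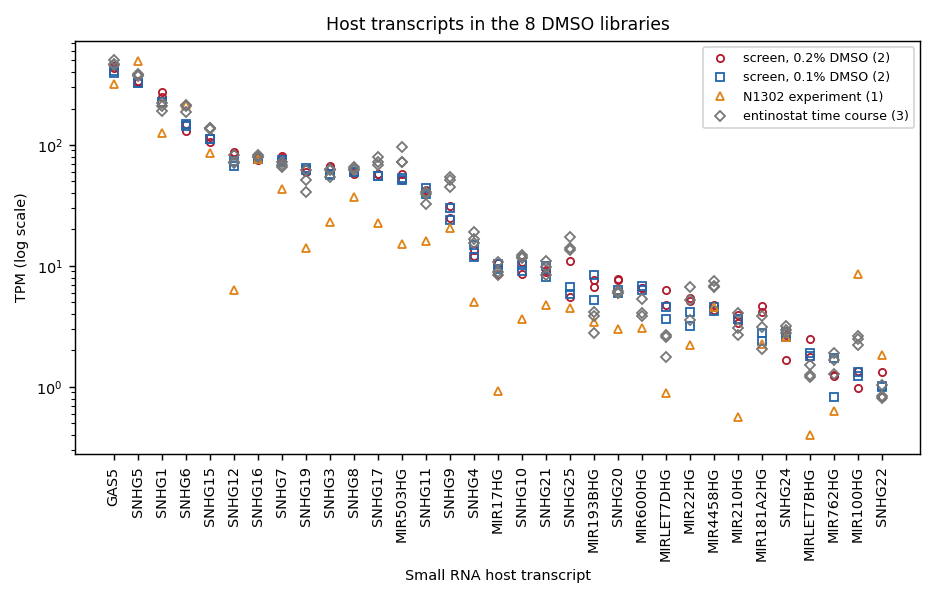
Level in TPM (log axis) of each host transcript with a mean of at least 1 TPM in screen DMSO, ordered by that mean; each symbol is 1 of the 8 DMSO libraries. GAS5, SNHG5, SNHG1 and SNHG6 lead, and the N1302 experiment (triangles) falls to 6.33 TPM for SNHG12 and rises to 8.53 TPM for MIR100HG.

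The higher DMSO concentration alone was compared with the lower. No member and none of the 16359 genes passed (limma, adjusted p at least 0.503 for members), whereas 9 of 40 members had an unadjusted p below 0.05 against 9.46% of all genes, and all 9 were higher in 0.2% DMSO. SNHG3 differed by 0.22 on the log2(TPM + 1) scale (SE 0.0229, limma adjusted p = 0.503) and SNHG12 by 0.27 (SE 0.0587, limma adjusted p = 0.511).

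The main question was which compounds moved the hosts within 6 h. LAQ824, a hydroxamic acid inhibitor of many HDACs, moved the most: 20 of 40 members rose and 8 fell (limma on log2(TPM + 1), adjusted p below 0.05 over all genes), against backgrounds of 32.4% of all genes higher and 28.1% lower. The kinds of host are given apart, and their difference was not tested. Among SNHG genes with GAS5, 15 of 22 rose and 2 fell, with a median change of 0.80 on the log2(TPM + 1) scale; among MIR host genes 5 of 18 rose and 6 fell, with a median of -0.11, both shares near those of all genes. The median over all genes tested was 0.06. With a log2 change of at least 1 also asked, 15 members remained, against 25.7% of all genes.

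SNHG12 (chr1:28905050-28908366, hg19, minus strand), host of 4 snoRNA rows, was at 213 TPM with 5 µM and 258 TPM with 0.5 µM LAQ824, both above every DMSO library, a rise of 1.58 ± 0.23 (SE, limma adjusted p = 1.86e-06). SNHG19 (chr16:2204783-2205359, hg19, minus strand), host of SNORD60, was at 159 and 175 TPM and rose by 1.40 ± 0.23 (limma adjusted p = 8.54e-06). SNHG7 (chr9:139619046-139622636, hg19, minus strand) was at 185 and 184 TPM and rose by 1.25 ± 0.15 (limma adjusted p = 8.43e-08). The doses thus gave nearly the same levels, though they differ by a factor of 10. SNHG21 rose by 1.17, SNHG9 by 1.15, SNHG15 by 1.08 and SNHG1 by 1.04. The most abundant hosts moved less: GAS5 reached 607 and 622 TPM, a rise of 0.55 ± 0.17 (limma adjusted p = 0.00772), SNHG5 rose by 0.74 and SNHG6 by 0.79. SNHG17, at 57.2 and 56.5 TPM, lay inside its DMSO range of 55.4 to 58.0 TPM, and SNHG3, whose row overlaps the protein-coding gene RCC1, and SNHG20 fell.

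Several miRNA hosts fell together with LAQ824. MIR503HG was at 13.9 TPM with 5 µM and 14.6 TPM with 0.5 µM, below the 51.0 to 57.1 TPM of the DMSO libraries, a fall of 1.83 on the log2 scale (SE 0.442, limma adjusted p = 0.00083). MIR17HG (chr13:92000074-92006829, hg19, plus strand) was at 1.94 and 2.15 TPM against 8.52 to 10.6 TPM and fell by 1.81 (SE 0.313, limma adjusted p = 1.82e-05). MIR181A2HG was at 0.619 and 0.131 TPM against 2.38 to 4.69 TPM, and rested on 9 to 21 reads in DMSO. None of these ranges overlapped. MIRLET7BHG fell by 1.18, SNHG20 by 1.09 and MIR193BHG by 0.83.

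Other miRNA hosts rose with LAQ824. MIR210HG (chr11:565657-568457, hg19, minus strand), host of the hypoxia-responsive miR-210, was at 11.8 and 14.8 TPM against 3.37 to 3.92 TPM in DMSO, a rise of 1.62 ± 0.37 (SE, limma adjusted p = 0.000493). MIR22HG was at 9.60 and 10.2 TPM and rose by 1.01 ± 0.30 (SE, limma adjusted p = 0.00434). MIR5689HG passed the filter only through treated libraries, those of LAQ824 among them, so its rise was fixed by the filter. Of the called members, MIR5689HG (0.047 TPM in DMSO), MIR325HG (0.223 TPM) and SNHG18 (0.570 TPM) rested on few reads, at most 8 in any screen DMSO library for SNHG18. All 10 markers of fusion-positive rhabdomyosarcoma also fell with LAQ824, by a median of 1.20 on the log2 scale, and ALB, the only tested marker of another lineage, rose by 1.54. Their part in the result was not tested.

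**Figure D2:**
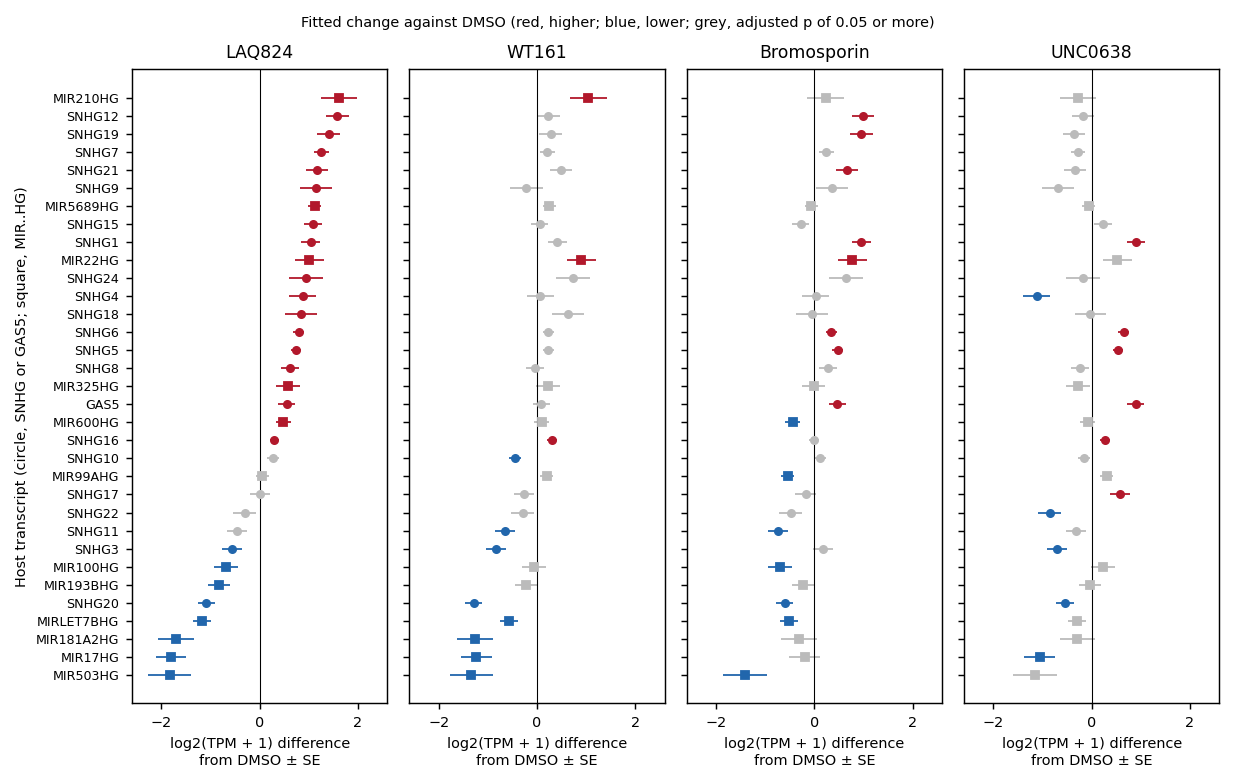
Fitted difference of log2(TPM + 1) from DMSO with its standard error for the 33 members called with LAQ824, WT161, Bromosporin or UNC0638, ordered by the LAQ824 value; red points are called higher, blue lower, grey neither. With LAQ824 the snoRNA hosts (circles) gather on the right up to SNHG12 at 1.58 and MIR503HG, MIR17HG and MIR181A2HG (squares) lie farthest left.

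With WT161, 3 of 40 members rose and 8 fell, against 23.0% of genes higher and 18.8% lower, so the share that fell was near that of all genes. MIR503HG was at 10.9 TPM with 10 µM and 37.7 TPM with 1 µM, a fall of 1.34 (SE 0.442, limma adjusted p = 0.0165). SNHG20 was at 1.73 and 2.77 TPM against 5.95 to 7.72 TPM and fell by 1.29 (SE 0.175, limma adjusted p = 2.18e-06). MIR181A2HG fell by 1.26, MIR17HG by 1.24 and SNHG3 by 0.84. MIR22HG rose by 0.90 and SNHG16 by 0.30. MIR210HG rose by 1.05 in the fit (SE 0.371, limma adjusted p = 0.0247), but its levels were 19.4 TPM with 10 µM and 3.49 TPM with 1 µM, the second within the DMSO range. Some snoRNA hosts were above DMSO with the higher dose alone: SNHG12 was at 133 TPM with 10 µM and at 62.5 TPM with 1 µM, and SNHG19 at 104 and 55.5 TPM. Others, such as SNHG3 and SNHG20, were lower at both doses. The count moved with either dose alone in the fit, which leaves 1 library of the compound. With a log2 change of at least 1, 5 members remained, against 10.7% of all genes.

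Bromosporin, which binds many bromodomains, raised 8 members and lowered 7, against 16.5% of genes higher and 29.5% lower. SNHG12 was at 159 and 152 TPM, a rise of 0.99 ± 0.23 (SE, limma adjusted p = 0.00114). SNHG1 was at 606 TPM with 10 µM and 367 TPM with 1 µM and rose by 0.96 ± 0.19 (SE, limma adjusted p = 0.000268), and SNHG19 was at 170 and 87.9 TPM and rose by 0.96 ± 0.23 (SE, limma adjusted p = 0.0014). Of the 8 that rose, 7 were snoRNA hosts, and the eighth, MIR22HG, rose by 0.77. MIR503HG was lowest at 13.2 and 28.2 TPM, a fall of 1.41 (SE 0.442, limma adjusted p = 0.0106), followed by SNHG11 (a fall of 0.74) and MIR100HG (a fall of 0.70), while MIR17HG at 7.95 and 8.69 TPM did not pass. With a log2 change of at least 1, 1 member remained, MIR503HG, against 13.4% of all genes. The 10 µM library was among those with mostly even read numbers. With the DMSO samples of a concentration averaged, 9 members were called. The count also moved with 10 µM alone in the fit, which leaves 1 library of the compound.

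SGC-CBP30 lowered 4 members and raised 0, against 6.11% of genes lower and 3.73% higher. SNHG10 was at 5.84 and 6.15 TPM against 8.54 to 10.7 TPM, a fall of 0.60 (SE 0.119, limma adjusted p = 0.00183). SNHG15 fell by 0.62, SNHG3 by 0.64 and SNHG22, from a level of 1.04 TPM in DMSO, by 0.94. MIR503HG was at 17.8 TPM with 10 µM and 45.3 TPM with 1 µM and did not pass. Without replicate 2 of 0.2% DMSO, 2 members were called, with the DMSO samples of a concentration averaged 1, and with a log2 change of at least 1 also asked 0. The count also moved with 10 µM alone in the fit, which leaves 1 library of the compound.

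MC1568 raised 12 members and lowered 2, against 28.3% of genes higher and 4.92% lower, and its median over all genes was itself 0.26. The members that rose were 7 miRNA hosts and 5 snoRNA hosts, led by SNHG24 (1.15), MIR99AHG (1.01) and MIR100HG (1.00) and followed by MIR600HG (0.83). SNHG16 was at 53.1 and 57.6 TPM against 75.5 to 79.8 TPM and fell by 0.47 (SE 0.0988, limma adjusted p = 0.000658). MC1568 shared its flow cell with LAQ824 and 2 of the DMSO libraries. Against those 2 alone, 4 members were called with MC1568 and 25 with LAQ824. Without replicate 1 or replicate 2 of 0.1% DMSO, 7 and 9 were called with MC1568, and with the DMSO samples of a concentration averaged 7. With a log2 change of at least 1, 3 members remained for MC1568, against 7.44% of all genes.

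Merck60 and OJI-1 called 0 of 40 members each, where 0.648% and 1.22% of all genes passed (limma). Single levels still left the DMSO range: SNHG4 was at 25.0 and 22.6 TPM with Merck60 against 11.9 to 14.9 TPM in DMSO, and MIR503HG at 105 and 77.3 TPM against 51.0 to 57.1 TPM, both above it at both doses. The 10 µM Merck60 library was among those with mostly even read numbers. With 1 µM OJI-1, GAS5 was at 620 TPM and SNHG6 at 204 TPM, against 492 and 164 TPM with 10 µM. The counts moved with 10 µM Merck60 or 1 µM OJI-1 alone in the fit, which leaves 1 library of the compound.

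**Figure D3:**
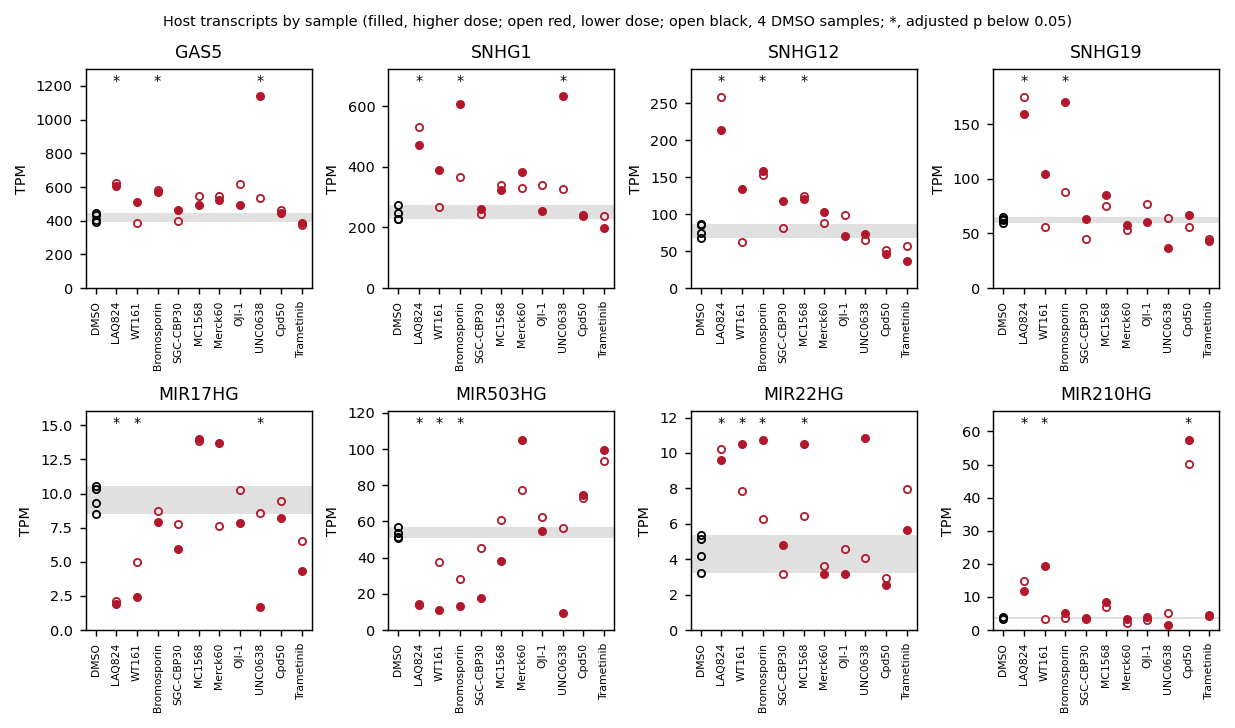
TPM of 8 hosts in the 4 DMSO libraries (open black, grey band their range) and in both doses of 10 compounds (filled red, higher dose; open red, lower dose); an asterisk marks a limma adjusted p below 0.05 over both doses. MIR503HG lies under the band at both doses with LAQ824, WT161 and Bromosporin and above it with Merck60, Cpd50 and trametinib, and GAS5 reaches 1142 TPM with 10 µM UNC0638.

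Among the methylation-axis compounds, UNC0638, labelled as an inhibitor of the H3K9 methyltransferase KMT1C (G9a), moved the hosts most, with 6 members higher and 5 lower against 6.33% and 18.9% of all genes. All 6 that rose were snoRNA hosts, but so were 4 of the 5 that fell. The median change over the 22 SNHG genes with GAS5 was -0.21, against -0.12 over all genes. GAS5 was at 1142 TPM with 10 µM, the highest of all 52 libraries, and at 536 TPM with 1 µM, a rise of 0.90 ± 0.17 (SE, limma adjusted p = 0.000984). SNHG1 was at 634 and 326 TPM and rose by 0.90 ± 0.19 (SE, limma adjusted p = 0.00187). SNHG17 was at 143 TPM with 10 µM but at 50.5 TPM with 1 µM, below its DMSO range. SNHG6 rose by 0.65, SNHG5 by 0.54 and SNHG16 by 0.27. SNHG4 fell by 1.12, MIR17HG by 1.06 and SNHG22 by 0.86, and MIR503HG was at 9.40 TPM with 10 µM and 56.4 TPM with 1 µM (limma adjusted p = 0.056). With UNC0638 and DMSO alone in the fit, GAS5 and SNHG1 no longer passed (limma adjusted p = 0.153 and 0.133). With a log2 change of at least 1, 2 members remained, against 4.4% of all genes.

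The rows of snoRNAs inside GAS5 did not follow the host with 10 µM UNC0638. Summed over the 11 rows, they were at 461 TPM, against 726 to 910 TPM in the DMSO libraries, so that the ratio of the sum to GAS5 was 0.403 where the other screen libraries gave 1.16 to 2.76. The 8 rows inside SNHG1 gave a ratio of 0.799, again the lowest of the screen, against 1.48 to 3.01 in the others. With LAQ824 the 8 rows summed to 1410 and 1550 TPM, against 445 to 564 TPM in DMSO, and rose at least as much as SNHG1 itself (ratios 3.01 and 2.93). These rows lie within the hosts, so reads of unspliced host RNA can be counted in them, and snoRNAs have no poly(A) tail. For the 4 rows inside SNHG12 the ratio with 10 µM UNC0638 was 3.22, within the 1.51 to 3.57 of the screen. For the 4 rows inside SNHG17 the ratio was 0.187 with 10 µM UNC0638, but the lowest of the screen was 0.167 with 10 µM PFI-2. Low ratios were not particular to this compound outside the screen: the N1302 experiment's DMSO library gave 0.591 for GAS5 and 0.51 for SNHG1. The comparison has 1 library at this dose and was not tested.

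Cpd50, labelled as a pan Jumonji inhibitor, raised 1 member and lowered 1, against 5.22% of genes higher and 5.73% lower. MIR210HG was at 57.3 TPM with 5 µM and 50.2 TPM with 0.5 µM, against 3.37 to 3.92 TPM in DMSO. That rise of 3.56 ± 0.37 (SE, limma adjusted p = 6.24e-08) was larger in size than that of any other member with any compound of the screen. SNHG15 fell by 0.60. The other 9 methylation-axis compounds gave 4 calls higher and 0 lower over 360 tests of members, against 1.4% and 0.583% over all genes. These were MIR99AHG (0.56), MIR600HG (0.52) and SNHG10 (0.47) with GSKLSD1 and MIR99AHG (0.61) with SGC0946. Over all 11 methylation-axis compounds the 17 calls became 61 with own samples and DMSO alone, and 7 with the DMSO samples averaged. They also rose with either dose alone, where each compound has 1 library and the spread comes from the 4 DMSO libraries alone. Shares of all genes under these alternatives are not given here.

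PFI-3 called 0 members, where 0.0245% of all genes passed (limma). Trametinib raised 2 members and lowered 3, against 3.06% of genes higher and 3.08% lower. MIR193BHG was at 13.3 and 13.1 TPM and rose by 0.84, MIR99AHG rose by 0.70, and SNHG20, SNHG15 and SNHG10 fell by 0.63, 0.58 and 0.55. SNHG12 was at 37.1 and 56.6 TPM, under every DMSO library of the screen, and did not pass. Without replicate 1 of 0.1% DMSO or either replicate of 0.2% DMSO, 3 members were called over PFI-3 and trametinib, and 2 with the DMSO samples averaged.

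Over the whole screen, 34 of the 40 tested members were called with at least 1 compound, 17 of them only higher, 6 only lower and 11 in both directions. The same count over all genes is not given here. With LAQ824 alone, 32.4% of all genes were called higher and 28.1% lower, so these counts are not set apart from the background. The 94 calls were uneven over compounds, since 83 came from LAQ824, WT161, Bromosporin, SGC-CBP30, MC1568 and UNC0638. MIR503HG, MIR17HG, MIR181A2HG, SNHG3, SNHG11 and SNHG22 were the 6 called only lower. MIR22HG, host of an miRNA linked to differentiation and growth arrest, rose with 4 acetylation-axis compounds. The heat map shows the same blocks, red over the snoRNA hosts with LAQ824 and blue for MIR503HG and MIR17HG.

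**Figure D4:**
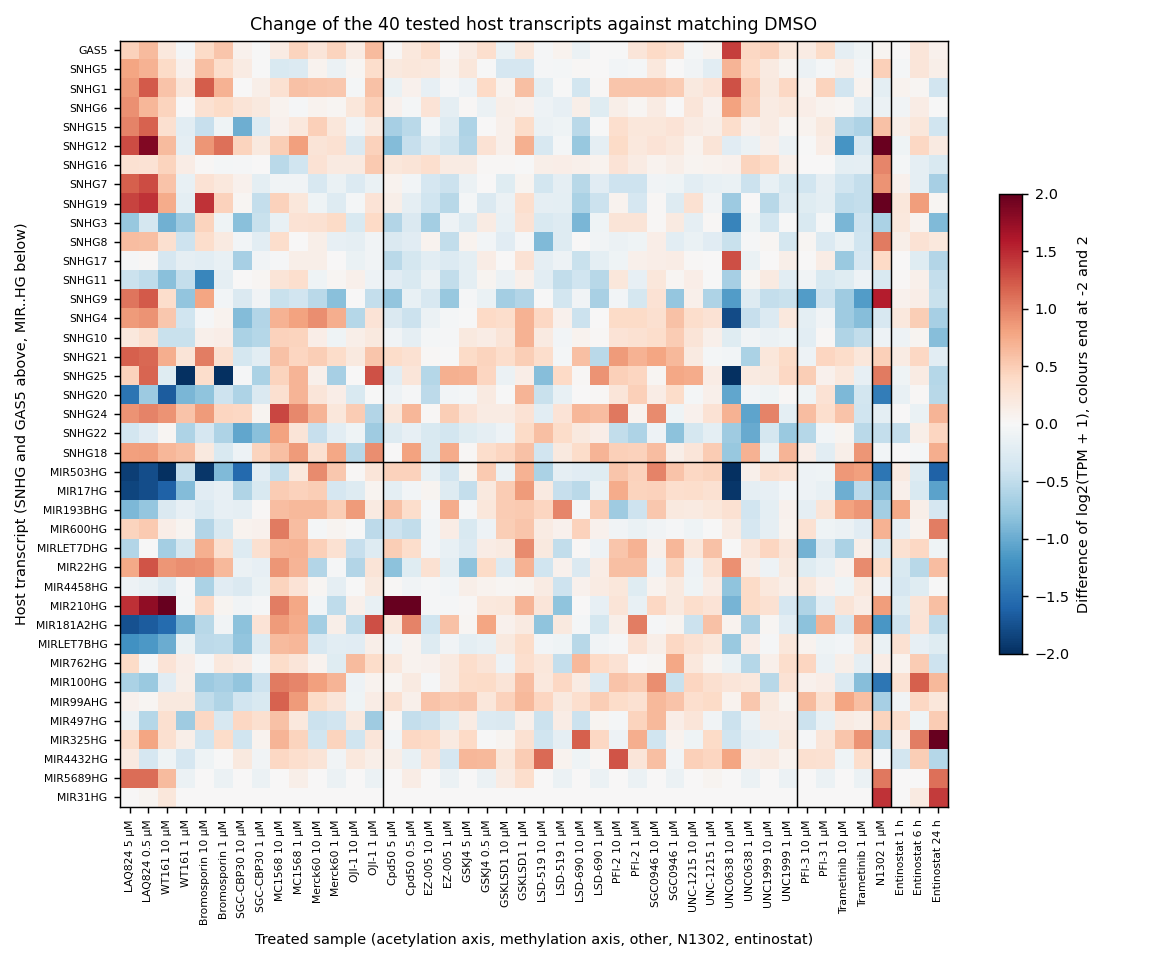
Difference of log2(TPM + 1) of each of the 40 tested hosts (rows, snoRNA hosts above, miRNA hosts below, each ordered by level in DMSO) from the DMSO of the same dose level, experiment or time, for the 44 treated libraries (columns); colours end at -2 and 2. MIR503HG and MIR17HG are blue in both LAQ824 columns and with 10 µM UNC0638, and MIR210HG is dark red with Cpd50.

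Acetylation-axis compounds were also compared with methylation-axis compounds, 7 against 11 compound means. No member passed, and none of the 16359 genes did (limma); 6 of 40 members had an unadjusted p below 0.05, against 30.7% of all genes. SNHG12 differed by 0.67 (SE 0.188, limma adjusted p = 0.0568), with a mean change of 0.59 over the acetylation axis and -0.08 over the methylation axis, and SNHG19 by 0.59 (SE 0.182, limma adjusted p = 0.0627). MIR503HG differed by -0.77 (SE 0.318, limma adjusted p = 0.116). Without MC1568, Merck60 or OJI-1 in turn, 4, 3 and 3 members passed. The number of all genes passing in these fits is not given here. Without that number, these counts do not show whether any difference was particular to the hosts.

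Hosts named by other conventions, and the proteins that act on these RNAs, were counted in the same fit. For each list the shares of all genes are those given above, with LAQ824 32.4% higher and 28.1% lower, and counts of the noncoding hosts, the snoRNA particle proteins and the decay factors lay near them. Of 13 noncoding hosts outside the name pattern, 5 rose and 5 fell with LAQ824 (median 0.06), among them MEG8 (1.84), MIAT (1.13) and MEG3 (1.09) higher and DNM3OS (-2.53), host of miR-199a and miR-214, lower. With UNC0638, 2 rose and 1 fell: ZFAS1 (1.49) and EPB41L4A-AS1 (1.16), both snoRNA hosts, were higher and DANCR (-0.50) was lower. Of 32 protein-coding hosts of snoRNAs or miRNAs, 4 rose and 19 fell with LAQ824 (median -0.38), 2 rose and 14 fell with WT161 (median -0.33), and 6 rose and 11 fell with Bromosporin. The CTDSP phosphatases that host miR-26 members were among them, with CTDSP1 lower by 2.42 on the log2 scale. The protein-coding list mixes hosts of snoRNAs with hosts of miRNAs. Its falls with LAQ824 therefore cannot be set directly against the 15 of 22 noncoding snoRNA hosts that rose.

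Of 12 proteins of snoRNA particles and their assembly, 5 rose and 3 fell with LAQ824 (median 0.17), with SHQ1 (1.21) and RUVBL2 (0.84) higher and DKC1 (-1.22) lower, and 0 rose and 7 fell with Bromosporin (median -0.32). Of 9 genes of miRNA processing, 0 rose and 6 fell with LAQ824 (median -0.62), led by DICER1 (-2.05), the cytoplasmic processing enzyme, and AGO2 (-1.56). Of 16 factors of nonsense-mediated decay, 4 rose and 6 fell with LAQ824 (median -0.21), SMG9 (-1.97) and SMG5 (-1.27) lower and EIF4A3 (0.99) higher. With UNC0638, 0 rose and 2 fell (median 0.07), against 6.33% of all genes higher and 18.9% lower. Those 2 were UPF1 (-0.69), a helicase of that pathway, and DHX34 (-0.54). Of 20 short-lived mRNAs, 6 rose and 4 fell with LAQ824 (median 0.25), and 11 rose and 0 fell with UNC0638 (median 0.95), with EGR1 (3.11) and ATF3 (1.48) among the 11. Of 9 stable mRNAs, 1 rose and 7 fell with LAQ824 (median -0.43), and 1 rose and 1 fell with UNC0638. The medians over all genes were 0.06 with LAQ824 and -0.12 with UNC0638.

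N1302, an epoxide-bearing cyclic tetrapeptide HDAC inhibitor, was compared with its own DMSO library, without replicates and so without a test. At 6 h, 7 of 40 members were at least 2-fold higher on the log2(TPM + 1) scale and 4 at least 2-fold lower, against 11.6% and 19.3% of all genes. SNHG19 went from 13.9 TPM in DMSO to 71.3 TPM, SNHG12 from 6.33 to 27.9 TPM and SNHG9 from 20.5 to 62.9 TPM. The same 3 hosts were called higher with LAQ824 in the screen. SNHG8 went from 37.5 to 78.1 TPM, SNHG25 from 4.48 to 10.2 TPM, and MIR31HG and MIR5689HG, listed at 0 in DMSO, were at 1.72 and 1.09 TPM. Both entered the tested set only through treated libraries, N1302 and entinostat at 24 h and, for MIR5689HG, also LAQ824, so the filter fixed their direction and they say nothing about the members. The 4 that were lower were MIR503HG (15.1 to 4.88 TPM), MIR100HG (8.53 to 2.51 TPM), SNHG20 (2.98 to 0.524 TPM) and MIR181A2HG (2.26 to 0.461 TPM). The treated level of SNHG12 was still below that of the other 7 DMSO libraries, and those of MIR100HG and SNHG25 (8 reads against 5) lay within their range, so these directions rest on the library used as reference. Against the mean of both RH4 DMSO libraries of 6 h, 3 members were higher and 6 lower. The shares of all genes under that reference are not given here, so this count cannot be set against a background.

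Entinostat, a benzamide, was followed over time with 1 library and 1 DMSO library at each time. At 1 h, 0 of 40 members had moved 2-fold in either direction, where 0.66% of all genes were higher and 0.581% lower. At 6 h, 2 were higher and 0 lower, against 5.13% and 0.947%. At 24 h, 4 were higher and 2 lower, against 16.4% and 6.06%. MIR503HG was at 81.9, 60.5 and 30.8 TPM with entinostat at 1, 6 and 24 h, against 72.6, 72.4 and 96.2 TPM in DMSO. MIR17HG was at 9.08, 7.07 and 4.55 TPM, against 8.37, 8.96 and 10.7 TPM. Both were thus highest at 1 h and lowest at 24 h under entinostat, and only MIR503HG and MIR17HG were 2-fold lower at 24 h.

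MIR325HG was at 0.977, 3.23 and 6.31 TPM with entinostat, against 0.795, 1.07 and 0.700 TPM in DMSO, and MIR100HG was at 3.47, 6.33 and 4.45 TPM against 2.65, 2.21 and 2.48 TPM. They were the 2 higher at 6 h. At 24 h MIR600HG was at 11.7 TPM against 5.28 TPM, and MIR31HG and MIR5689HG, listed at 0 in the 24 h DMSO library, were at 1.64 and 1.16 TPM. These last 2 of the 4 higher members passed the filter only through treated libraries, this one included, so their direction was fixed by it. None of the 22 SNHG genes with GAS5 passed 2-fold at any of the 3 times. SNHG12 was at 68.3, 94.9 and 93.0 TPM against 72.8, 70.7 and 81.9 TPM, and GAS5 at 459, 558 and 538 TPM against 459, 470 and 508 TPM. Other snoRNA hosts were lower at 24 h, SNHG3 at 33.8 TPM against 63.4 TPM and SNHG10 at 6.04 TPM against 11.7 TPM. The median change over the 22 SNHG genes with GAS5 was 0.01, 0.12 and -0.34 at the 3 times, over the 18 MIR host genes 0.05, 0.15 and 0.11, and over all genes 0.00, 0.02 and 0.10. The short-lived mRNAs had medians of 0.11, 0.46 and 0.83, with 0, 3 and 8 of 20 at least 2-fold higher.

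**Figure D5:**
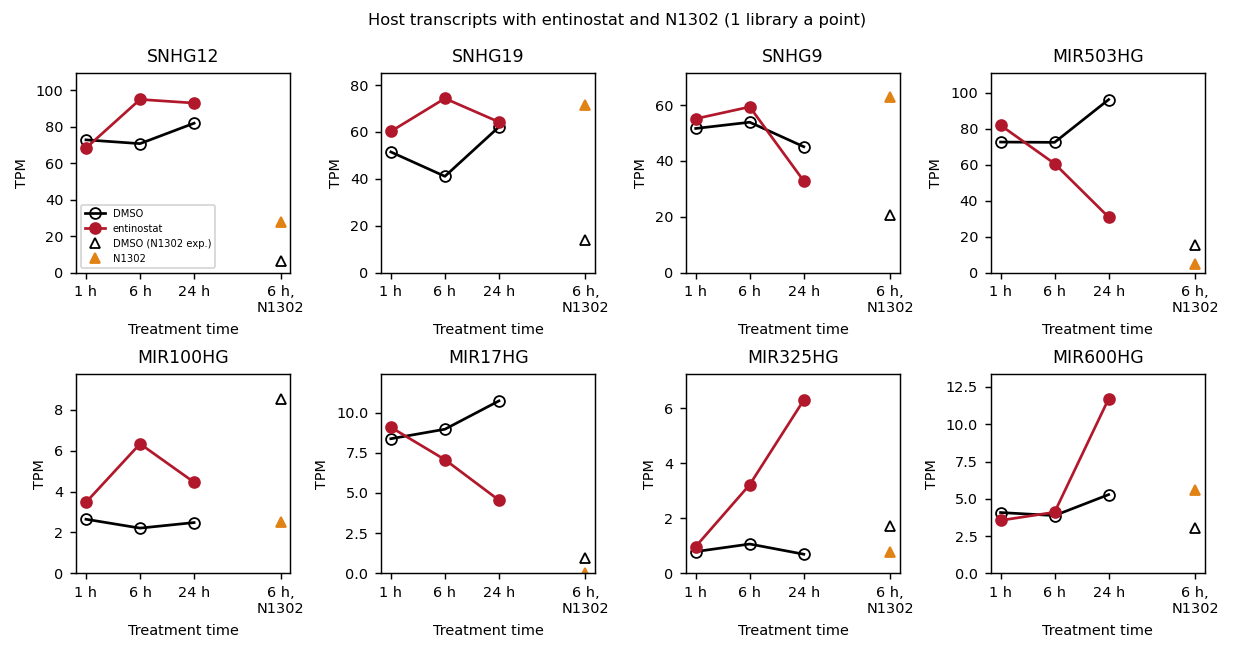
TPM of 8 hosts with entinostat (red) and DMSO (open black) at 1, 6 and 24 h, and with N1302 (orange) and its own DMSO (open triangle) at 6 h; each point is 1 library. MIR503HG and MIR17HG lie below DMSO at 24 h, MIR325HG rises to 6.31 TPM, and SNHG12 and SNHG19 are far lower in the N1302 experiment's DMSO than in the time course.

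Promoters were read for the tested members, and those of some that moved with LAQ824 are printed below. RefSeq held a promoter, 250 bases before to 50 after the annotated start (GRCh38.p14), for 33 of the 40 tested members. The words searched, on both strands, were CACGTG, an E-box bound by MYC, and CCAAT, bound by NF-Y. CACGTG occurred in 1 of 33, SNHG7, and in 7.43% of all 27305 promoters. CCAAT occurred in 14 of 33, that is in 5 of 17 SNHG genes with GAS5 and 9 of 16 MIR host genes, against 35.7% of all promoters. SNHG12, the snoRNA host that rose most with LAQ824, and MIR503HG, the member that fell most, held neither word. Each promoter printed holds 1 of the words, so the printed ones do not stand for all members that moved. SNHG19 held CCAAT at 3 places and MIR17HG at 1, and capitals mark the words in the promoters of SNHG19 and SNHG7, which rose, and of MIR17HG, which fell.
SNHG19 (chr16:2155309-2155608, minus strand): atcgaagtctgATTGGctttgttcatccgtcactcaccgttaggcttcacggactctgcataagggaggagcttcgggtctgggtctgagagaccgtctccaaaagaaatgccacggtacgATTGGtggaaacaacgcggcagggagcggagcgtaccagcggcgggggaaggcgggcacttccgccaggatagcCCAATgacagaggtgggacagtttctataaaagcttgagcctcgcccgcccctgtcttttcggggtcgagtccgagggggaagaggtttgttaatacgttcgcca
SNHG7 (chr9:136728135-136728434, minus strand): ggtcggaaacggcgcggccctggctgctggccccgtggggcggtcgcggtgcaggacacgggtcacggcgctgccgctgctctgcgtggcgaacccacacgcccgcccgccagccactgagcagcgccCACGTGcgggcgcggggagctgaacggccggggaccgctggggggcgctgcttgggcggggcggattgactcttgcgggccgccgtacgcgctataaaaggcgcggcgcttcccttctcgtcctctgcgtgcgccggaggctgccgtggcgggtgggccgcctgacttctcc
MIR17HG (chr13:91347437-91347736, plus strand): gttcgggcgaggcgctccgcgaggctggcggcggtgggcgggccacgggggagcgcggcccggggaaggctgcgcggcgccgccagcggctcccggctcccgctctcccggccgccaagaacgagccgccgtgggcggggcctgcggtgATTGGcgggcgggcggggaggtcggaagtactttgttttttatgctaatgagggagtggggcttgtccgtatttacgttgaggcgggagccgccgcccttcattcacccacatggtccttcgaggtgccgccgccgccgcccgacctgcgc
A match is a description of these letters only.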

How the data were processed

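RNA from the cells was sequenced as poly(A) libraries by the authors, aligned to hg19 with STAR and quantified with RSEM; edgeR is also among the tools in the submitters' processing notes, and its role is not given in the sources used here. The deposited files hold TPM per gene, 1 column per sample, as the authors computed them. TPM was used as log2(TPM + 1). A gene was tested if its TPM was 1 or higher in a minimum of 2 samples out of 52 (16359 genes). Each compound (2 doses) was compared with 4 DMSO samples in 1 limma fit (3.58.1, R 4.3.3) over 44 screen samples with a mean-variance trend, Benjamini-Hochberg adjustment over all genes and a threshold of 0.05. Doses count as replicates, so dose differences enter the error. The 4 DMSO samples entered the fit singly although those of 1 concentration agree within sampling noise beyond the flow cell, so p-values can be too small; averaging them is an alternative. The axes were compared by limma on compound means. N1302 and entinostat, with 1 library a group, had no test; changes of at least 2-fold on that scale were counted.

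The members, gene lists, tests and alternatives were chosen with earlier results of these data known. Genes were named by rule: the 12 members highest in DMSO, miRNA hosts with a mean TPM of at least 1 in DMSO, up to 5 called members per direction for each acetylation-axis compound, trametinib and UNC0638, and members past 2-fold with TPM of at least 2 in 1 sample for N1302 and entinostat. Names outside this rule, such as MIR210HG with Cpd50, the rows inside GAS5 and SNHG1, and genes named from the lists, were chosen after their values were seen. Read numbers were recovered from the TPM steps (all 23645 genes above 0 whole within 0.02 reads) and used for depth and for limma voom. They cover counting error only. The fits were tested on simulated data. Rows of 15 tested members overlap another gene's row, among them SNHG3 (RCC1), SNHG4 (MATR3), SNHG12 (TRNAU1AP) and SNHG20 (SEC14L1). Strand use in counting is not given in the sources used here, so reads in the overlap are uncertain. Strands are from GENCODE v44 lifted to GRCh37, which matched 63 of 66 members. Sequences are from RefSeq, GRCh38.p14. Alternatives were another pseudocount, scaling, filter, reference, dose and DMSO subset, and voom on recovered reads.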

Additional observations from a re-analysis of the deposited data

Results flagged for a closer look

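Among 24 hosts checked over the 7 acetylation-axis compound changes, a compound stood far from the other 6 for 2 hosts, by the gap to its nearest neighbour divided by the whole range (above Dixon's 95% critical value for 7 values, which chance passes in about 1 of 20 groups). For SNHG7 the change with LAQ824 was 1.25 on the log2(TPM + 1) scale, while the other 6 compounds ranged from -0.23 to 0.25, a share of 0.678. For SNHG6 it was 0.79 with LAQ824 and 0.03 to 0.35 with the others, a share of 0.577. No host moved one way in every acetylation-axis library and the other way in every methylation-axis library.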

How the results depend on the processing

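Of 576 repeats of 39 called changes of single members, 513 kept direction and call, 62 kept direction but no longer passed, and 1 reversed: MIR210HG with WT161 was -0.0461 with the lower dose alone. Calls were most often lost with the DMSO samples of a concentration averaged (13), the lower dose alone, or own samples and DMSO alone (10). 16 of the 39 kept their call in every repeat. The 39 were the calls with the largest changes, up to 3 per direction for a compound, out of 94 in the screen. The other calls were not followed, so these shares do not cover them.

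The number of members called moved as follows, and shares of all genes are not given beside these counts. Averaging the DMSO samples gave 9 with Bromosporin, 1 with SGC-CBP30, 7 with MC1568, 7 over the 11 methylation-axis compounds (17 otherwise) and 2 over PFI-3 and trametinib (5 otherwise). The higher dose alone gave 27 with WT161, 23 with Bromosporin, 13 with SGC-CBP30, 25 with MC1568, 9 with Merck60, 84 over the methylation axis, 16 over PFI-3 and trametinib and 2 between axes. The lower dose alone gave 1 with Merck60, 10 with OJI-1, 61 over the methylation axis and 13 over PFI-3 and trametinib. Own samples and DMSO alone gave 26 with MC1568, 11 with Merck60, 61 over the methylation axis and 20 over PFI-3 and trametinib. A log2 change of at least 1 left 15 with LAQ824, 5 with WT161, 1 with Bromosporin, 0 with SGC-CBP30, 3 with MC1568, 3 over the methylation axis and 0 over PFI-3 and trametinib. Dose level as a term gave 8 over PFI-3 and trametinib, DMSO of the same flow cell 4 with MC1568, voom 1 with Merck60 and 1 between axes, a mean TPM of at least 5 gave 1 between axes, and a pseudocount of 0.1 gave 1 member past 2-fold with entinostat at 1 h. The cause of these moves was not tested.

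Leaving out 1 DMSO library at a time gave 27 to 28 members with LAQ824, 11 with WT161, 13 to 15 with Bromosporin, 2 to 3 with SGC-CBP30, 7 to 12 with MC1568, 11 to 13 over the methylation axis (11 without replicate 2 of 0.2% DMSO), 3 to 4 over PFI-3 and trametinib and 0 with Merck60, OJI-1 and between DMSO concentrations. Leaving out 1 compound at a time gave 0 to 4 between axes. With the replicate number as a block, 0 members passed between DMSO concentrations (7 higher and 2 lower at an unadjusted p below 0.05); the numbers pair libraries by flow cell. Members under 10 reads in DMSO, such as SNHG25, are limited by depth.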
